A study of Rattus norvegicus with 5 samples.

Results

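The interferon regulatory factors (IRF), the signal transducers and activators of transcription (STAT) and the suppressors of cytokine signalling (SOCS) were followed in leukocytes washed out of the blood vessels of rat kidney grafts. The 9 genes, Irf1, Irf7, Irf8, Stat2, Stat3, Stat4, Socs1, Socs3 and Cish, were chosen by symbol in the probe annotation, from 14871 named genes, and 8 of them had enough values to be tested beside 14329 named genes in all. Each of the 5 dual-colour arrays compared leukocytes of an allograft (an F344 kidney, RT1lv1, in a LEW recipient, RT1l) with leukocytes of an isograft (a LEW kidney in a LEW recipient). All animals were male rats, both grafts went into recipients whose own kidneys had been removed, donors were given heparin and recipients ampicillin, and no recipient had immunosuppression. The cells came from a density gradient that removes granulocytes and red cells, and the labels state neither the age of the animals nor the time after surgery. The strain pair differs at a minor class I locus, and the labels call the rejection self-limiting, which bounds it as a model of rejection. The labels call the arrays biological replicates without naming animals, so the p-values measure the spread between these arrays, which may be partly technical.

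Cytokines bound to their receptors activate Janus kinases (JAK), which phosphorylate STAT proteins, and these enter the nucleus and switch on target genes. Interferon gamma acts at sites called GAS and induces Irf1, whereas type I interferons act through ISGF3, a complex that holds STAT2 and IRF9, at sites called ISRE and induce Irf7. SOCS proteins and CISH are induced by STATs and shut the same receptors off, so their transcripts are part of a feedback loop. In leukocytes of a rejected graft, interferon gamma comes mainly from T cells and NK cells and acts on macrophages and other cells.

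Values are log2 ratios of allograft over isograft, so 0 means equal signal in both and 1 means a doubling. This direction is likely, since the sample titles name the allograft first. The log base was taken to be 2. Genes were assigned to values through a reconstruction of the table's row order. A ratio gives no level, so neither the abundance of a gene nor the presence of the defining leukocyte markers could be read from it. In bulk samples, fewer cells of a type and less RNA per cell cannot be told apart. Fitted ratios are given ± SE from limma over 5 arrays unless stated, and a gene is called changed at an adjusted p under 0.05.

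Irf1 rose in allograft leukocytes on every array, and it was the single regulator past the test. Irf8, Stat2 and Stat3 had ratios above 0 on all 5 arrays without passing it, Irf7, Stat4 and Cish lay near 0, and Socs3 had ratios below 0 on the 4 arrays that measured it. Thus 1 of 8 regulators was called higher and 0 were called lower in limma, while 1.07% of all named genes were called higher and 0.712% lower. Over all 33646 genes and unnamed probes 455 were called, which is 1.35%. At an unadjusted p under 0.05 there were 4 regulators, all of them higher, where 15.2% of named genes lay in either direction and 7.63% higher. Counts at an unadjusted p given below for other lists are to be read against these shares. How many named genes keep a single sign on all arrays was not counted, so the signs above are a description. The median ratio of the 8 regulators was 0.25, against -0.01 over the named genes. The regulators were chosen with earlier results of these data known. Their counts and median beside the named genes are thus a description with no test.

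**Figure D1:**
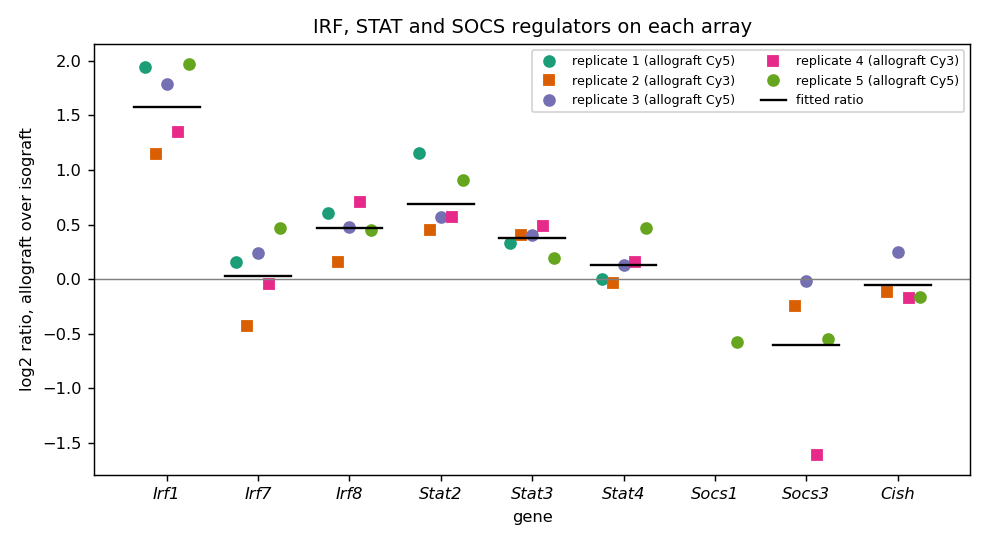
Log2 ratio of allograft over isograft (y axis) for each of the 9 regulators (x axis), with a point for each array, circles where the allograft carried Cy5 and squares where it carried Cy3, and a black line at the fitted ratio. The points of Irf1 lie between 1.15 and 1.97, those of Socs3 spread from -1.61 to -0.01, and Socs1 has a single point.

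IRF1 is a transcription factor of the interferon gamma response that drives genes of antigen presentation and nitric oxide synthesis. Its ratio was 1.94 on replicate 1, 1.15 on replicate 2, 1.78 on replicate 3, 1.35 on replicate 4 and 1.97 on replicate 5. The lower values were those of replicates 2 and 4, the arrays on which the allograft carried Cy3, but on every array Irf1 lay above at least 97.8% of the named genes. The fitted ratio was 1.57 ± 0.13 (95% interval 1.27 to 1.88), a 2.98-fold rise, with an adjusted p of 0.00659. It lay above 99.7% of named genes, 36 of which had a higher ratio. The mean was 1.90 over the 3 Cy5 arrays and 1.25 over the 2 Cy3 arrays, and the dye term of 0.33 did not pass the test (adjusted p = 0.428). With each array left out in turn the ratio stayed between 1.52 and 1.62 and passed the test each time, with adjusted p from 0.0258 to 0.0468. It missed the threshold in 2 of 18 settings, the test without moderation of the variance (adjusted p = 0.135) and the fit with replicates 2 and 4 turned (0.33, adjusted p = 0.428). With those arrays turned the graft and dye terms trade places, so that ratio is the dye term above and not a separate check. Irf1 rests on 1 probe, so no second probe of the gene was compared.

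The stretch before the Irf1 start is shown because Irf1 carried the change, and those before Irf8 and Cish and part of that before Irf7 as examples of the other matches. The sequences are RefSeq promoter windows of GRCr8, written 5′ to 3′ on the strand of the gene, and cover the 250 bases before the start or, for Irf7, 30 bases around the match. Capitals mark a GAS match (TTCNNNGAA) in Irf1, Irf8 and Cish and an ISRE match (GAAA, any 2 bases, then GAAA, here read on the opposite strand) in Irf7.
Irf1, chr10:38417685-38417934, plus strand: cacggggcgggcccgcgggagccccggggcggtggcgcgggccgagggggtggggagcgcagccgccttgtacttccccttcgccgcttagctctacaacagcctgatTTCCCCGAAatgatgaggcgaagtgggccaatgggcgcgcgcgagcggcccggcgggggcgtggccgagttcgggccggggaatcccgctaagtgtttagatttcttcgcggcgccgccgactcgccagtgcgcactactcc
Irf8, chr19:65699034-65699283, plus strand: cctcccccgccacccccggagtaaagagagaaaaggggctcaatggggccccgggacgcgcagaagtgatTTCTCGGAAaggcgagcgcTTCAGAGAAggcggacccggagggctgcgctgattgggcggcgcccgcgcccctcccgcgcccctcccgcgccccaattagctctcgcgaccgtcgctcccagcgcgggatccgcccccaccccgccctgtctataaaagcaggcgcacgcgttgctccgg
Cish, chr8:116850719-116850968, plus strand: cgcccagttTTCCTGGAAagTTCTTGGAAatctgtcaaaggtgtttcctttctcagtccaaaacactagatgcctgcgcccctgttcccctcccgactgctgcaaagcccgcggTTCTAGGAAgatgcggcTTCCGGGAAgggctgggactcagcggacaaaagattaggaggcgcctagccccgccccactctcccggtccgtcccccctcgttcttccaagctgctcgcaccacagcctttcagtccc
Irf7, chr1:205800073-205800102, minus strand: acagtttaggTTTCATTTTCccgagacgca

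Both motifs were searched on both strands, and they share the letters GAA and so can overlap. The GAS letters occurred in 7.67% of 33469 RefSeq windows of the same length and the ISRE letters in 3.41%. Irf1 had 1 GAS match, 142 to 134 bases before its start, and Irf8 had 2, at 180 to 172 and 161 to 153 bases. Cish had 4 GAS matches, and Socs1 had 1 GAS match and 2 overlapping ISRE matches. Irf7 had 1 ISRE match, 69 to 60 bases before its start. These letters were not in the windows of Stat2, Stat3, Stat4 and Socs3. Side by side with the ratios below, Cish had the most GAS matches and a ratio near 0, and Stat2 had none of either motif and the ratio next after Irf1. Whether any match acts on its gene in these cells was not tested.

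IRF7 is the amplifier of type I interferon production and is itself induced through ISGF3. Its ratio was 0.16, -0.42, 0.24, -0.04 and 0.47 on replicates 1 to 5. Replicates 2 and 4 lay below 0 and the other arrays above it, so the gene value changed sign along the dye orientation. The dye term of 0.26 did not pass the limma test (adjusted p = 0.503). Single probes did not all share the pattern, and the one fitted at 0.17 below was at 0.42 on replicate 4. The fit gave 0.03 ± 0.14 (95% interval -0.30 to 0.36, adjusted p = 0.944), so a doubling lay outside the interval. The 3 Irf7 probes gave 0.17, -0.28 and 0.20 by themselves (adjusted p from 0.598 to 0.738). The last of these was the most variable, from -0.81 on replicate 2 to 1.27 on replicate 5.

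IRF8 governs the development of monocytes and dendritic cells, is also present in B cells, and cooperates with IRF1 at interferon gamma targets. Its ratio was 0.60 on replicate 1, 0.16 on replicate 2, 0.47 on replicate 3, 0.70 on replicate 4 and 0.45 on replicate 5, above 0 on each array. The fit over the gene gave 0.47 ± 0.14 (95% interval 0.13 to 0.81, adjusted p = 0.203), above that of 95.1% of named genes. The 3 probes differed in size. The highest gave 0.80 ± 0.14 and passed the test by itself (adjusted p = 0.0487), with values from 0.48 to 1.15, whereas the others gave 0.29 (adjusted p = 0.535) and 0.32 (adjusted p = 0.452). Among the genes known to work with or under IRF8 in myeloid cells, 0 of 16 passed the limma test and 7 did at an unadjusted p under 0.05. Their median was -0.12, and the 3 farthest from 0 were Cd74, the class II invariant chain, at 0.84 (adjusted p = 0.0527), the protease gene Ctss at 0.73 (adjusted p = 0.0549) and Batf3, a dendritic cell factor, at 0.70 (adjusted p = 0.112). The value of Cd74 averages unlike probes, at 1.48 (adjusted p = 0.00746 by itself), 0.84 (adjusted p = 0.0798) and 0.12 (adjusted p = 0.867).

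**Figure D2:**
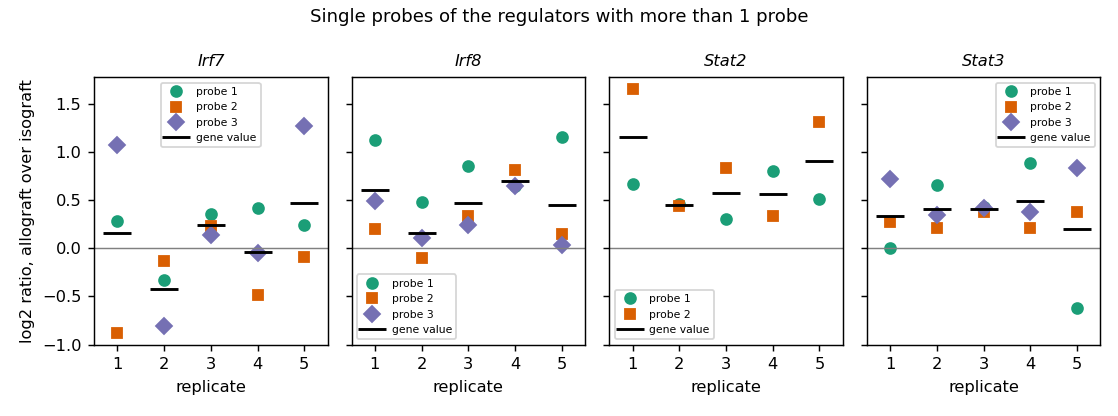
Log2 ratio of allograft over isograft (y axis) on each replicate (x axis) for every probe of Irf7, Irf8, Stat2 and Stat3. Each gene has its own panel, with a black dash at the gene value. The 3 Irf8 probes differ in height, and a probe each of Irf7 and Stat3 spreads across 0, from -0.81 to 1.27 and from -0.62 to 0.88.

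STAT2 is the subunit of ISGF3 that answers type I interferon. Its ratio was 1.16 on replicate 1, 0.45 on replicate 2, 0.57 on replicates 3 and 4 and 0.91 on replicate 5. All arrays lay above 0, with replicates 1 and 5 the highest. The fitted ratio was 0.69 ± 0.15 (95% interval 0.35 to 1.04), a 1.62-fold difference that missed the threshold with an adjusted p of 0.0800, and 295 named genes stood higher. It passed in 2 of 18 settings tried, with quantile normalization (adjusted p = 0.0425) and when the test was limited to probes named to a gene (adjusted p = 0.0367). The 2 probes gave 0.56 (adjusted p = 0.136) and 0.82 (adjusted p = 0.0699).

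STAT3 transmits signals of interleukin 6, interleukin 10 and related cytokines. Its ratio was 0.33, 0.41, 0.41, 0.49 and 0.20 on replicates 1 to 5, the narrowest spread among the regulators measured on 5 arrays (SD 0.109). The fitted ratio was 0.38 ± 0.13 (95% interval 0.08 to 0.68, adjusted p = 0.253). Of its 3 probes, 1 ran from -0.62 on replicate 5 to 0.88 on replicate 4, another from 0.35 to 0.83, and the last from 0.21 to 0.38. Of the STAT3 targets, 0 of 17 passed the limma test and 9 had an unadjusted p under 0.05, 5 of them higher. The genes farthest from 0 were Hif1a, the oxygen-sensing factor, at 0.79 (adjusted p = 0.0534), the AP-1 subunit gene Junb at 0.65 (adjusted p = 0.0676) and Cebpb, a myeloid factor, at 0.59 (adjusted p = 0.0896). The value of Hif1a averages unlike probes, at 1.23 (adjusted p = 0.0122 by itself), 0.75 (adjusted p = 0.1) and 0.40 (adjusted p = 0.383).

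STAT4 carries interleukin 12 signals in T cells and NK cells towards interferon gamma production. Its ratio was 0.00 on replicate 1, -0.04 on replicate 2, 0.13 on replicate 3, 0.16 on replicate 4 and 0.47 on replicate 5. Replicate 5 stood apart upward, and the first values lay at 0. This averaged to a fitted ratio of 0.13 ± 0.14 (95% interval -0.20 to 0.46, adjusted p = 0.741). Among genes of the STAT4 and T-bet axis, 1 of 11 passed the test, and it was Ifng itself, with ratios above 0 on 5 of 5 arrays, lowest on replicate 4 and up to 2.75 on replicate 3. The fitted ratio of Ifng was 1.76 ± 0.16, a 3.38-fold rise with an adjusted p of 0.00756, which was lost without replicate 4 or with the arrays scaled to a common spread (adjusted p = 0.0903). Gadd45g (0.59, adjusted p = 0.206) and Havcr2, an inhibitory receptor of T cells (0.49, adjusted p = 0.206), came next in size and did not pass.

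SOCS1 is the main brake on interferon gamma signalling. Its 1 probe had a value on replicate 5 only, -0.57, and was not tested. SOCS3 restrains interleukin 6 family receptors. Its ratio was -0.25 on replicate 2, -0.01 on replicate 3, -1.61 on replicate 4 and -0.54 on replicate 5, with no value on replicate 1. All 4 lay below 0, but replicate 4 was far lower than the others. The fitted ratio was -0.60 ± 0.26 over 4 arrays (95% interval -1.24 to 0.03, adjusted p = 0.404), and it passed in none of 17 settings. It ran from -0.94 to -0.26 in all but the fit with replicates 2 and 4 turned, which returned the dye term, 0.33. CISH restrains interleukin 2 receptor and STAT5 signals. Its ratio was -0.12, 0.25, -0.18 and -0.16 on replicates 2 to 5, above 0 on replicate 3 alone. Fitted, this came to -0.05 ± 0.16 over 4 arrays (95% interval -0.44 to 0.34, adjusted p = 0.914). Of the STAT5 targets, 0 of 12 passed the limma test and 3 had an unadjusted p under 0.05. The largest ratios were those of Tnfrsf4, a costimulatory receptor (-0.54, adjusted p = 0.164), the kinase gene Pim1 (-0.48, adjusted p = 0.311) and the protease gene Gzmb (0.43, adjusted p = 0.404).

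Within each array, Irf1 was set against the 5 other regulators measured on all arrays, as Irf1 alone passed the test. Irf1 exceeded the gene value of Irf7 by 1.39 to 1.79, a mean of 1.56 ± 0.145 (SD, n = 5). That gene value averages 3 unlike probes, and gaps to the single probes were not compared. Irf1 exceeded Irf8 by 0.65 to 1.53, Stat2 by 0.70 to 1.21, Stat3 by 0.74 to 1.78 and Stat4 by 1.19 to 1.94. Irf1 was the higher on 5 of 5 arrays in each of the 5 pairs. Irf1 was picked for these pairs after its ratio was seen, so the gaps are a description with no test. They are unequal changes between probes and not differences in level.

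By root mean square difference over the arrays, among 13308 named genes measured on all 5, the genes nearest to Irf1 were Ppm1n (0.202), Rnaset2 (0.215) and Cst7 (0.255). Their fitted ratios were 1.51, 1.55 and 1.46, and each passed the test. Casp1, the inflammatory caspase and an interferon gamma target, was nearest to Stat2 (0.108), and Oasl2, an antiviral gene, was nearest to Irf8 (0.0784). Diras3 was nearest to Irf7 (0.0229), Kif11 to Stat3 (0.0418) and Gpsm3 to Stat4 (0.0535). Over 4 arrays, Unc80 was nearest to Socs3 (0.0899) and Hrk to Cish (0.0424). With many genes near 0, a small distance is easily met there.

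Apart from the regulators above, no tested member of these families passed. Of 11 other IRF, STAT and SOCS genes 0 passed the limma test, and 0 had an unadjusted p under 0.05. Their ratios ran from 0.23 in Socs6 down to -0.36 in Stat6, which carries interleukin 4 signals, with a median of -0.03. Irf9, the DNA-binding subunit of ISGF3, was at 0.03, Irf3 at -0.03, Irf5 at 0.09 and Irf2, a competitor of IRF1, at -0.09. Stat5a and Stat5b were each at 0.13, Socs4 at -0.04, Socs2 at -0.08 and Socs5 at -0.11. Irf4 and Socs7 were not analysed here.

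Upstream of the STATs, 0 of 3 JAK genes passed the limma test and 2 had an unadjusted p under 0.05, in opposite directions. Jak2, which serves the interferon gamma receptor, had ratios of 0.88, 0.39, 0.54, 0.76 and 0.99 on replicates 1 to 5 and a fitted ratio of 0.69 ± 0.15 (adjusted p = 0.0809). Jak3, the partner of the common gamma chain of lymphocyte cytokine receptors, had ratios of -1.17, -0.63, -0.59, -1.15 and -1.55 and a fitted ratio of -1.0 ± 0.18 (adjusted p = 0.0579). All array values of Jak2 lay above 0 and all of Jak3 below it, which is a description of genes that did not pass. How common a single sign on all arrays is among named genes was not counted. Jak1 was at 0.30 (adjusted p = 0.468).

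**Figure D3:**
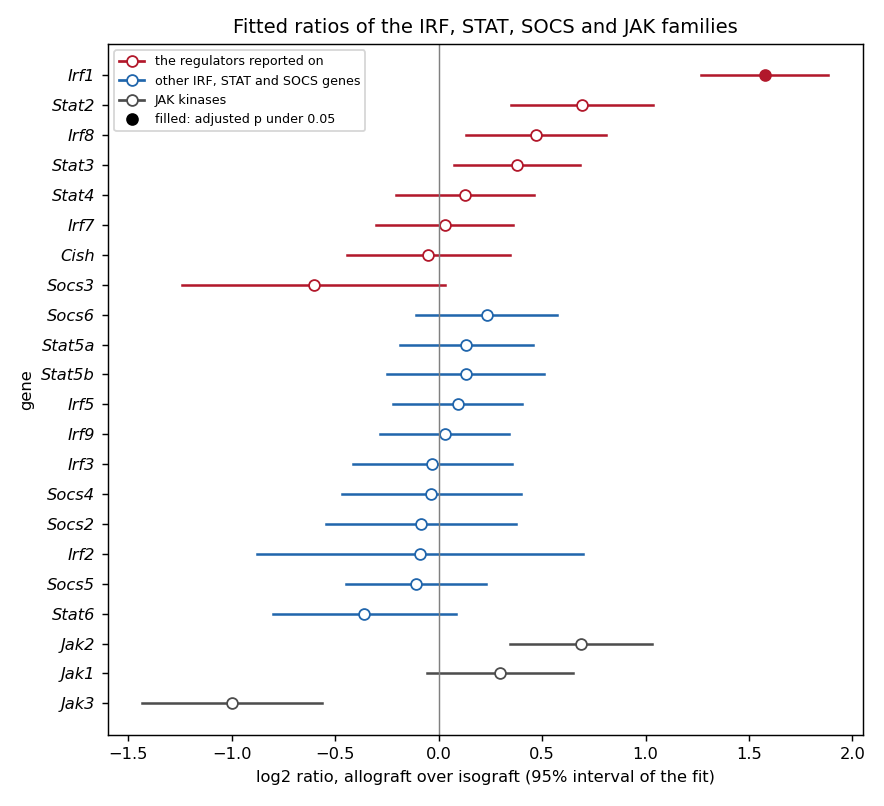
Fitted log2 ratio of allograft over isograft (x axis) with its 95% interval for each tested IRF, STAT, SOCS and JAK gene (y axis), filled where the adjusted p is under 0.05. Irf1, at 1.57, is the filled point, Jak3 lies lowest at -1.0, and the 11 family genes outside the regulators lie between -0.36 and 0.23.

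Among the other inhibitors of the pathway, 0 of 12 passed the limma test, and 3 had an unadjusted p under 0.05, all higher. These were Usp18, which blocks the type I interferon receptor (0.60, adjusted p = 0.102), and the phosphatase genes Ptpn1 (0.53, adjusted p = 0.136) and Ptpn2 (0.48, adjusted p = 0.185). Usp18 was below 0 on replicate 2 (-0.04) and reached 1.18 on replicate 5. Ptpn6, Ptpn11, Ptprc, Sh2b3, Cblb and Pias1 to Pias4 lay between -0.13 and 0.19. Of the IRF partners, 0 of 7 passed and 3 had an unadjusted p under 0.05. Besides Batf3, the partners tested included Spi1, the macrophage and B cell factor PU.1, at 0.47 (adjusted p = 0.280). The rest of those tested were Ikzf1 at 0.24, Irf2bpl at -0.02, Etv6 at -0.06, Tcf3 at -0.32 and Irf2bp1 at -0.51. Of 22 cytokine genes that signal through STATs, 1 passed (Ifng), and Il15 (0.77, adjusted p = 0.138) and Lif (-0.54, adjusted p = 0.171) came next in size. Of 26 receptor genes 0 passed and 5 had an unadjusted p under 0.05, the farthest from 0 being Il10rb (-0.88, adjusted p = 0.0997), Il6r (-0.70, adjusted p = 0.0928) and Il27ra (-0.59, adjusted p = 0.126).

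Targets of interferon gamma and IRF1 rose in number: 15 of 25 passed the test, all higher, with a median of 1.21 and array medians from 0.89 to 1.59. They included the chemokines Cxcl9 (4.08 ± 0.17), Cxcl11 (3.11) and Cxcl10 (2.44), the ubiquitin-like gene Ubd (2.86) and the GTPase genes Gbp2 (2.01), Gbp4 (1.92), Gbp5 (1.91), Irgm (1.81) and Ifi47 (1.70). The others were the antigen processing genes Psmb9 (1.61) and Tap1 (1.51), Il18bp, an inhibitor of interleukin 18 (1.46), Cd40 (1.21), the adhesion gene Icam1 (1.14) and Ciita, the class II transactivator (0.94). The value of Cxcl10 averages unlike probes, at 4.57 and 0.31. Irf1 itself, at 1.57, lay within this range, above the list's median. The list was drawn up with earlier results of these data known, and its count is a description.

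Targets of ISGF3 and IRF7 had a lower median, 0.26, with array medians from 0.08 to 0.52, and 1 of 25 passed in each direction. Parp9, an interferon-induced gene, rose (0.90 ± 0.14, adjusted p = 0.0380). Rsad2, the antiviral gene viperin, fell (-1.14 ± 0.15, adjusted p = 0.0234), but its 4 probes disagreed: 1 passed, at -3.18, and the others were at -1.09 (adjusted p = 0.117), -0.21 and -0.06. Bst2 (1.37, adjusted p = 0.0505) and Isg15 (1.00, adjusted p = 0.0559), both induced by type I interferon, missed the threshold. The calls of Parp9 and Rsad2 were lost whenever any array was left out, and so were those of Cd40, Ciita and Icam1. Of the interferon gamma targets, 9 kept their calls whichever array was left out: Cxcl9, Cxcl10, Cxcl11, Ubd, Gbp2, Gbp4, Irgm, Ifi47 and Psmb9. The call of Gbp5 was lost without replicate 1, 2, 3 or 5, that of Tap1 without replicate 1, 3, 4 or 5, and that of Il18bp without replicate 1, 4 or 5. With the arrays scaled to a common spread, Gbp5, Tap1, Cd40, Psmb9 and Parp9 no longer passed (adjusted p from 0.05 to 0.0606).

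**Figure D4:**
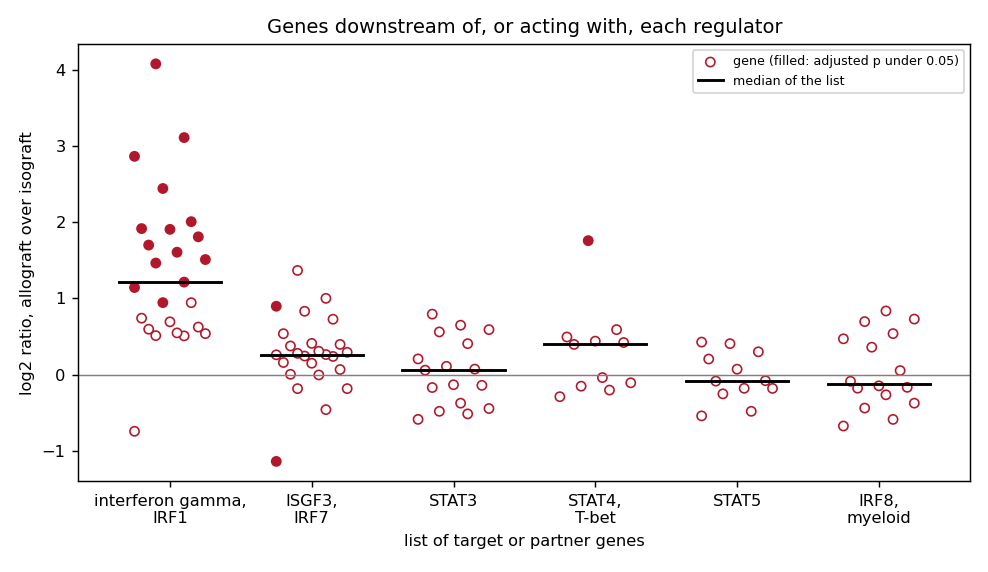
Fitted log2 ratio of allograft over isograft (y axis) of each tested gene in the 6 target lists (x axis), with the median of each list. The interferon gamma and IRF1 list has its median at 1.21, and the other lists have medians between -0.12 and 0.40.

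Over all lists around the regulators, 17 of 174 tested genes that are not among the regulators were higher (9.77%) and 1 was lower (0.575%), against 1.07% and 0.712% of named genes. All of the higher ones but Ifng and Parp9 came from the interferon gamma list. The lists were drawn up with earlier results of these data known, so these shares are a description with no test.

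Markers of cell types differed between the grafts. Of the platelet markers 5 of 7 fell (median -2.23, array medians from -3.24 to -1.74), and of the red cell markers 9 of 15 fell (median -1.56, from -2.30 to -1.24). Monocyte and macrophage markers had a median of 0.26 with 3 higher and 1 lower of 21 (array medians -0.01 to 0.38), NK cell markers 0.16 with 2 higher of 12 (-0.01 to 0.39), and T cell markers 0.11 with 1 higher of 18 (-0.24 to 0.27). All 10 B cell and plasma cell markers lay below 0 (median -0.43, from -1.20 to -0.14), with 0 passing limma and 5 at an unadjusted p under 0.05. Medians were 0.00 for 12 dendritic cell, -0.23 for 17 granulocyte, 0.01 for 17 endothelial and -0.06 for 19 kidney tubule and podocyte markers, with 0 passing. With an array left out, 3 to 4 of the 5 platelet calls, 2 to 7 of the 9 red cell calls (2 without replicate 1 or 5, 3 without replicate 4) and 0 to 2 of the 4 monocyte and macrophage calls remained, and none of those in T cell and NK cell markers. The part of these differences in the ratios of Irf1, Irf8 and the other regulators was not tested.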

How the data were processed

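The authors deposited a log ratio per spot, read here as log2, for 44290 spots on 5 arrays. The labels state no scanner, background correction, normalization or log base (not given in the sources used here). Array medians ran from -0.01 to 0.03, SDs from 0.506 to 0.847, and 41033 to 43286 spots had values. The number of arrays limits the precision. Replicates 2 and 4 carried the allograft on Cy3, and their deposited ratios were used unturned.

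Row numbers were re-ordered (103 rows by 430 columns, 215 columns of one parity first, the annotation from the opposite corner): probes of one accession then correlated at 0.452 over 4378 pairs, against 0.00604 as numbered. A set of 407 dye-following spots was left out. The annotation gave 1 gene for 23535 probes, several for 48 and none for 20707, and 23488 matched the RefSeq table of GRCr8.

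Probes needed values on 4 arrays and in both dye orientations and were averaged per gene. limma 3.58.1 (R 4.3.3) fitted a graft and a dye term to 33646 genes and unnamed probes, two-sided, with Benjamini-Hochberg adjustment. Alternatives covered the dye term, normalization, variance model, probe averaging, rows tested, a minimum fold, row order, turned arrays and each array left out.

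The regulators and gene lists were chosen with earlier results of these data known. The text names the regulators, the genes of other lists that passed, all tested family, JAK, partner and inhibitor genes, the 3 largest ratios of other lists and the nearest genes (3 for Irf1, 1 for the others). Markers are given by counts.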

Additional observations from a re-analysis of the deposited data

Results flagged for a closer look

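Cish had a ratio of 0.25 on replicate 3, while the other arrays that measured it lay between -0.18 and -0.12. The gap of that array to its nearest neighbour was 0.858 of the whole range over 4 arrays, past the limit of Dixon's test at the 95% level. About 5% of such groups pass it by chance, and 16 ends of 8 genes were looked at. Without replicate 3 the fitted ratio of Cish was -0.15, and it did not pass the test either way.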

How the results depend on the processing

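Counts called were 455 over all genes and unnamed probes, 1 regulator, 18 pathway genes, 15 interferon gamma targets and 2 ISGF3 targets. With each array left out they ran from 64 to 149 (fewest without replicate 5), 1 each time, 10 to 13, 9 to 11 and 0 to 1, with fewer arrays in each fit. Irf1 passed in 16 of 18 settings. It missed with replicates 2 and 4 turned (below) and without variance moderation (adjusted p = 0.135), and ran from 1.52 to 1.71 in all but the turned fit. Without moderation all 5 counts were 0, with 4501, 4, 69, 23 and 12 at an unadjusted p under 0.05. Quantile normalization gave 748 calls, 2 regulators, 28 pathway genes and 6 ISGF3 targets. Testing only named genes gave 2 regulators (Irf1 and Stat2), 36 pathway genes and 6 ISGF3 targets. ISGF3 targets numbered 4 without the dye term, 4 after local trend removal and 1 with the median of probes. A minimum change of 1.2-fold left 197 calls and 0 ISGF3 targets (7 unadjusted). Arrays scaled to a common spread gave 332 calls, of which 34.3% were higher against 56.3% of the main 455. With replicates 2 and 4 turned, all 5 counts were 0 (3823, 1, 16, 5 and 2 unadjusted) and Irf1 was at 0.33 (adjusted p = 0.428). Turning these arrays swaps the graft and dye terms. The ratios and counts of that fit are thus those of the main fit's dye term, with the dye-following spots already left out. With row numbers taken as given, 0 regulators, 3 pathway genes, 0 interferon gamma and 0 ISGF3 targets were called (2 regulators, 2 and 4 targets unadjusted). The cause of these changes was not tested. No regulator past the test changed direction. Each ratio sets the 2 grafts of an array against each other, so the fit was already paired by array. No further pairing was possible, as there is a single group of arrays. Signal over background is unknown here, so how well any probe was measured cannot be judged.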

Other observations

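The deposited ratios differ in format between dye orientations. Values of replicates 1, 3 and 5, with the allograft on Cy5, had a median of 9 significant digits, and those of replicates 2 and 4, with the allograft on Cy3, had a median of 6 and never more than 6. Whether their processing differed was not tested.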
